A study of Mus musculus with 6 samples.

Results

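Aggrecan, the matrilins and their partners are the non-collagenous scaffold of cartilage, and 10 genes of this group, chosen by name, were followed here in sorted Tomato+ cells. They were *Acan* (aggrecan), *Hapln1* (cartilage link protein), *Comp* (cartilage oligomeric matrix protein), *Matn1*, *Matn2*, *Matn3* and *Matn4* (matrilins), *Cnmd* (chondromodulin), *Snorc* (a small chondrocyte proteoglycan) and *Ucma* (unique cartilage matrix-associated protein). All 10 were found among the 17854 genes of the deposited table. All 10 passed the expression filter, *Matn1* only through its counts in the Native Prrx libraries described below. The Inject Prrx group held 3 libraries of Tomato+ cells recovered from repaired articular cartilage of C57BL/6 males with knee osteoarthritis, whose joints had been injected with Tomato+ mesenchymal stromal cells (MSCs) from the inguinal white fat of *Prrx1-Cre; R26tdTomato* mice. The Native Prrx group held 3 libraries of endogenous articular Tomato+ cells from age- and sex-matched *Prrx1-Cre; R26tdTomato* mice. In both groups the label comes from Cre under *Prrx1* control. The paper defines this lineage as the progeny of cells that expressed *Prrx1* early in development. It reports the label in osteoblasts, inguinal fat and dermis too, and not in chondrocytes alone. The endogenous cells come from mice with no stated joint injury, so the origin of the cells, the genotype of the host and the injury of the joint cannot be told apart. The methods give 3 mice for each group, and where libraries do not stand for separate mice the p-values measure only the spread between libraries.

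Aggrecan is a very large proteoglycan whose sulfated chains hold water and let cartilage resist compression. Many aggrecan molecules bind along a hyaluronan chain, and link protein locks each of them in place. The matrilins and COMP are oligomeric adaptors that join collagen fibrils, proteoglycans and cells, and the transcription factor SOX9 with its partners SOX5 and SOX6 drives many of these genes in chondrocytes.

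The libraries held 22060628 to 24881796 expected counts each, and the floor of 3 counts lay between 0.121 and 0.136 CPM, which covers counting error only. The MSC-derived libraries lay close together (biological coefficient of variation 6.77%), whereas the endogenous ones spread more (35.1%), and endogenous replicate 1 stood apart with 3459 genes at 0 counts against 1338 and 1395 in the other two. Both groups are labelled chondrocyte. The words MSC-derived and endogenous are used in this report as names of the Inject Prrx and Native Prrx libraries, whatever cells these held. The summed level of 9 chondrocyte markers (cartilage collagens and SOX genes) was 17943 to 19772 TPM (a transcript level corrected for length) in the endogenous libraries but 163.6 to 171.9 TPM in the MSC-derived ones, and all 9 markers were lower there. A list of 10 macrophage markers summed to 13984 to 14315 TPM in the MSC-derived libraries and 106.4 to 117.0 TPM in the endogenous ones, with the highest level for *C1qb*. Larger sums were held by 10 neutrophil markers, with 147406 to 156100 TPM in the MSC-derived and 8219 to 11571 TPM in the endogenous libraries, and by 10 erythroid markers, with 79734 to 82011 and 18289 to 24703 TPM. Leukocyte (11 of 11), macrophage (10 of 10), neutrophil (10 of 10) and erythroid markers (10 of 10) were all called higher in the MSC-derived libraries, and fibroblast (9 of 9) and osteoblast markers (8 of 8) were all called lower. Among all genes tested 31.3% were called higher and 30.3% lower. The osteoblast markers summed to 44128 to 70303 TPM in the endogenous and 1178 to 1191 TPM in the MSC-derived libraries. For the fibroblast markers the sums were 35293 to 45034 and 2108 to 2136 TPM. In the endogenous libraries both sums were larger than that of the chondrocyte markers. Of 5 tendon markers 3 were lower and the others did not pass. No defining chondrocyte marker was at 0, and the lowest, *Col9a1*, had 63 to 90 expected counts per MSC-derived library. The part of these cell mixtures in the values below was not tested, and in such bulk samples fewer cells of a type and less RNA per cell cannot be told apart.

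All 10 genes were called lower in MSC-derived than in endogenous cells (edgeR's quasi-likelihood test, threshold 0.05 on the adjusted p). *Matn1*, with 5, 7 and 9 expected counts in the MSC-derived libraries, passed the filter only through the endogenous ones. Its call in this direction is therefore no separate support. Without the filter the log2 fold change of *Matn1* was -5.89. Of the 14289 genes tested 61.6% were called in either direction, 30.3% lower and 31.3% higher. None of the 10 was higher in edgeR, DESeq2 or limma, and none had an unadjusted p under 0.05 in that direction. No endogenous library overlapped any MSC-derived library for any of the 10, a pattern in this direction that 34.1% of all genes tested showed. The median log2 fold change of the 10 was -5.59, beside 0.05 over all genes tested. The changes ran from -8.45 for *Cnmd* to -1.08 for *Matn4*. These changes, and the edgeR falls given for single genes below, are on the scale of TMM-adjusted counts. The TPM values printed beside them give a larger fall for each of the 10 genes.

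**Figure D1:**
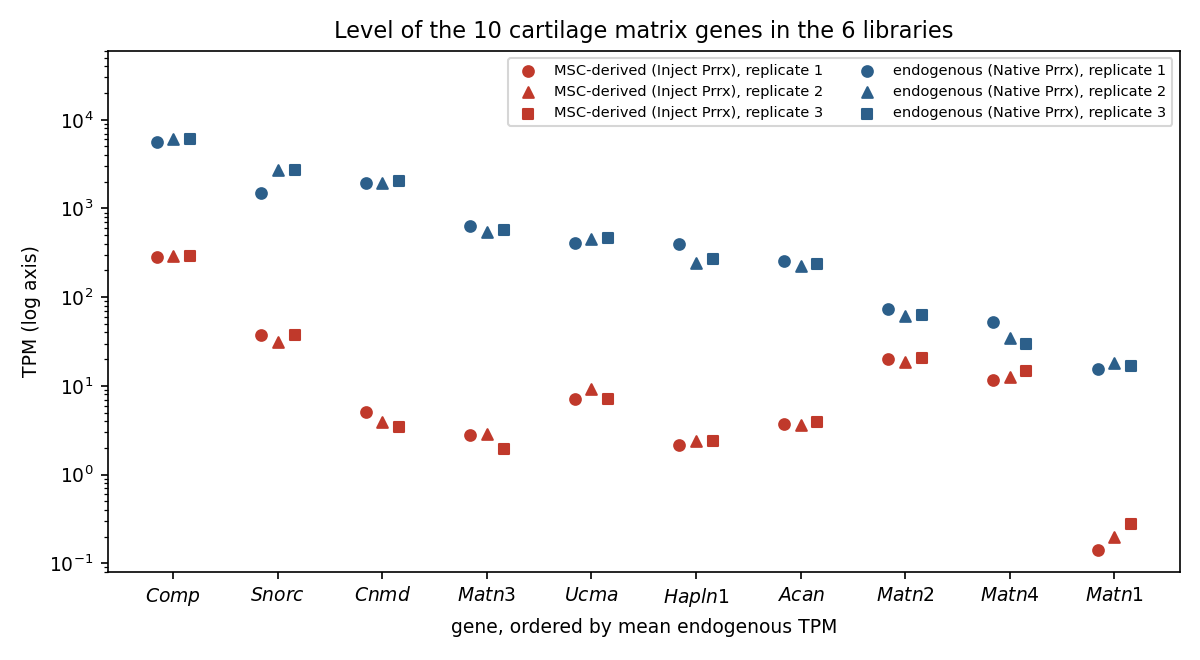
Level of each gene in TPM (log axis) in the 3 MSC-derived and the 3 endogenous libraries, each point a library. The endogenous points lie above the MSC-derived points for every gene, from *Comp* at 5644 to 6121 TPM to *Matn1* at 15.6 to 18.3 TPM, and the gap is smallest for *Matn2* and *Matn4*.

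*Acan* stood at 259, 223 and 237 TPM in endogenous replicates 1 to 3 and at 3.75, 3.60 and 3.89 TPM in the MSC-derived replicates. The levels within each group lay close together, and the groups were far apart. On the scale of TMM-adjusted counts *Acan* was 47.0-fold lower in the MSC-derived cells (edgeR's quasi-likelihood test, log2 fold change -5.55 with a standard error of 0.08, adjusted p = 2.08e-08). The MSC-derived value still rested on 505 to 553 expected counts per library, well above the floor. *Hapln1*, whose product ties aggrecan to hyaluronan, had 401, 244 and 269 TPM in the endogenous libraries and 2.17, 2.39 and 2.41 TPM in the MSC-derived ones. Endogenous replicate 1 was the high library, at 1.57 times the mean of the other two. *Hapln1* was 95.1-fold lower in the MSC-derived cells (log2 fold change -6.57, standard error 0.17, adjusted p = 1.27e-07), and the log2 fold change was -6.46 without endogenous replicate 1.

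The ratio of link protein to aggrecan transcripts was also compared. In the endogenous libraries there were 1.55, 1.09 and 1.13 *Hapln1* TPM for each *Acan* TPM, and in the MSC-derived libraries 0.579, 0.664 and 0.620. The ratio was therefore below 1 in each MSC-derived library and above 1 in each endogenous library. With 3 libraries against 3 the exact two-sided permutation test gave p = 0.1, the smallest it can give (adjusted p = 0.133 over 4 ratios compared, which were chosen after the values were seen).

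*Comp*, a pentameric thrombospondin relative that is also made in tendon, ligament and synovium, was the most abundant of the 10 in both groups. Its levels were 5644, 6121 and 6013 TPM in the endogenous libraries and 283, 288 and 292 TPM in the MSC-derived libraries. The groups were far apart, and the MSC-derived values had the smallest spread of the 10 genes (coefficient of variation 1.53%). The fall was 15.2-fold on the scale of TMM-adjusted counts (edgeR's quasi-likelihood test, log2 fold change -3.93 with a standard error of 0.10, adjusted p = 1.14e-07). After *Matn4* and *Matn2* this was the smallest decrease among the 10, and the MSC-derived libraries still held 11677 to 12518 expected counts of *Comp*.

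The matrilins split into strongly and weakly lowered genes. *Matn3*, a matrilin of cartilage, stood at 633, 540.4 and 569.5 TPM in the endogenous libraries and at 2.81, 2.86 and 1.93 TPM in the MSC-derived libraries. It was 168-fold lower (log2 fold change -7.39, standard error 0.16, adjusted p = 6.74e-08), the 52nd most negative change of the 14289 genes tested. *Matn1*, the first known cartilage matrilin, was the lowest of the 10 in both groups. It had 15.6, 18.3 and 16.7 TPM in the endogenous libraries and 0.14, 0.20 and 0.28 TPM in the MSC-derived ones, where the values rested on 5, 7 and 9 expected counts. The fall of *Matn1* was 59.9-fold with a wide 95% interval of 36.2 to 99.1 (edgeR's quasi-likelihood adjusted p = 2.67e-06), and limma on log2(FPKM + 1), which shrinks low values, gave a log2 fold change of -3.14 in place of -5.90.

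*Matn2*, which many connective tissues outside cartilage express, had 73.0, 61.1 and 62.7 TPM in the endogenous libraries and 20.2, 18.7 and 20.5 TPM in the MSC-derived libraries. The groups did not overlap, yet the fall was only 2.43-fold on TMM-adjusted counts (95% interval 2.14 to 2.77, edgeR's quasi-likelihood adjusted p = 6.34e-06). In TPM the fall of *Matn2* was larger, with the MSC-derived mean at 30.2% of the endogenous mean. The smallest TPM fold between any endogenous and any MSC-derived library was 2.98, outside that interval. *Matn4*, another matrilin with wide expression, had 52.9, 34.8 and 29.8 TPM in the endogenous libraries and 11.8, 12.7 and 14.7 TPM in the MSC-derived libraries. Replicate 1 was again the high endogenous library, at 1.64 times the mean of the other two. *Matn4* was 2.12-fold lower on TMM-adjusted counts (95% interval 1.60 to 2.81, edgeR's quasi-likelihood adjusted p = 0.00115). The log2 fold change was -0.97 without endogenous replicate 1, against -1.08 with it. In TPM the MSC-derived mean of *Matn4* was 33.3% of the endogenous mean. In the GENCODE M21 annotation exons of *Matn2* overlap the gene 9430069I07Rik and exons of *Matn4* overlap *Rbpjl*, each on the opposite strand, and the use of strand in counting is not given in the sources used here. *Rbpjl* had at most 11 expected counts and 9430069I07Rik at most 12 in any library, compared with 536 to 1379 for *Matn4* and 1189 to 3020 for *Matn2*.

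The make-up of the matrilin transcripts was therefore unlike in the groups, with no overlap of any matrilin's share. *Matn3* held 81.7%, 82.6% and 83.9% of the summed matrilin TPM in the endogenous libraries and 8.06%, 8.29% and 5.16% in the MSC-derived ones. *Matn2* held 9.24% to 9.42% in the endogenous libraries and 54.3% to 57.8% in the MSC-derived libraries, and *Matn4* 4.39% to 6.83% and 33.7% to 39.3%. The ratio of *Matn2* to *Matn3* was 0.110 to 0.115 in the endogenous libraries and 6.55 to 10.6 in the MSC-derived libraries (exact two-sided permutation p = 0.1, the smallest possible, adjusted p = 0.133). The ratio of *Matn1* to *Matn3*, whose products can form mixed oligomers, was 0.0246 to 0.0339 and 0.0498 to 0.145 (the same exact p of 0.1), and it rests on few *Matn1* counts. By contrast the ratio of *Matn4* to *Matn2* overlapped between the groups, at 0.474 to 0.725 and 0.583 to 0.717 (exact permutation p = 0.5).

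**Figure D2:**
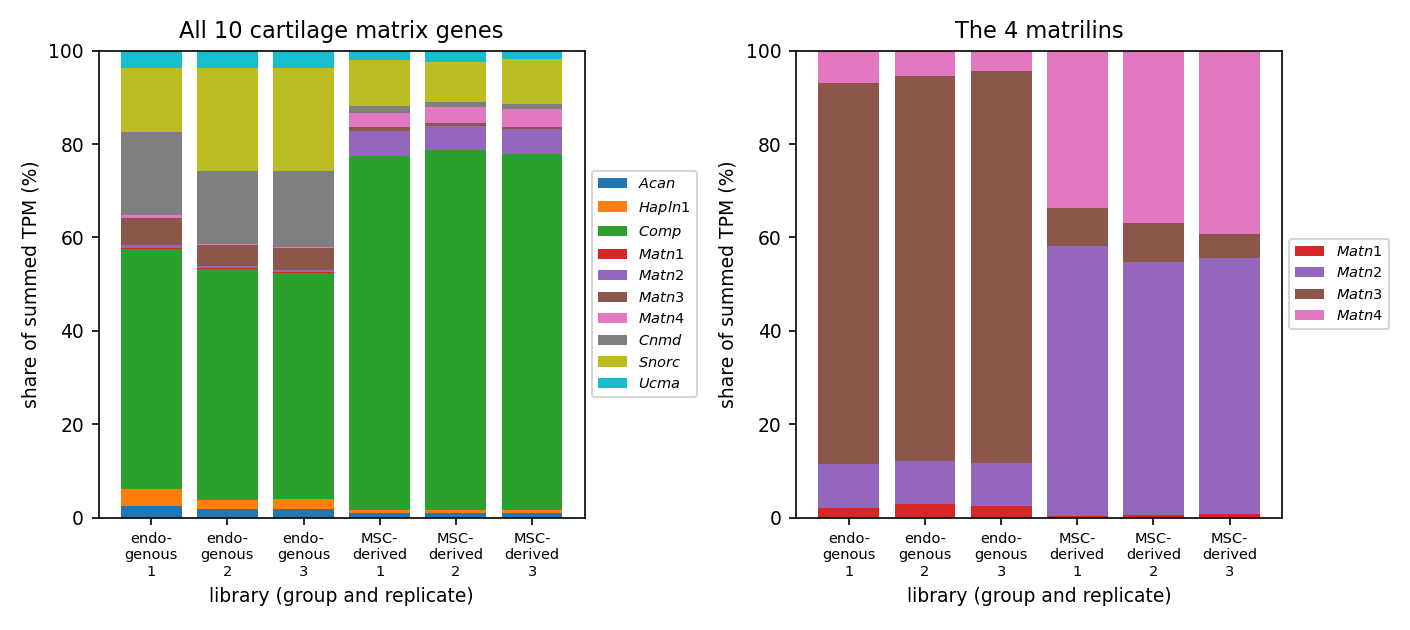
Share of each gene in the summed TPM of all 10 genes (left) and of the 4 matrilins (right), each bar a library. *Comp* takes 48.4% to 51.6% of the endogenous bars and 75.8% to 77.2% of the MSC-derived bars, and the largest matrilin changes from *Matn3* to *Matn2*.

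*Cnmd* encodes chondromodulin, a cartilage glycoprotein known to keep blood vessels out. Its levels were 1945, 1927 and 2037 TPM in the endogenous libraries and 5.13, 3.92 and 3.46 TPM in the MSC-derived libraries, so that it was the third most abundant of the 10 in the endogenous cells and the sixth in the MSC-derived cells. It fell most of the 10, by 349-fold (95% interval 264 to 461, edgeR's quasi-likelihood adjusted p = 5.87e-08), and ranked 22 among all genes tested. *Tnmd*, which encodes the related tenomodulin of tendon, did not pass the threshold, with 163, 159 and 178 expected counts in the endogenous and 132, 152 and 169 in the MSC-derived libraries (log2 fold change -0.21, standard error 0.22, adjusted p = 0.449).

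*Snorc* and *Ucma* encode small proteins of chondrocytes. *Snorc* had 1507, 2743 and 2726 TPM in the endogenous libraries and 37.2, 31.6 and 37.1 TPM in the MSC-derived libraries. Endogenous replicate 1 was the low library here, at 0.551 times the mean of the other two. The fall of *Snorc* was 49.6-fold (95% interval 29.6 to 83.0, edgeR's quasi-likelihood adjusted p = 3.78e-06), with a log2 fold change of -5.95 without endogenous replicate 1 and -5.63 with it. *Ucma*, which binds calcium through modified glutamate residues, had 408, 452 and 460 TPM in the endogenous libraries and 7.16, 9.15 and 7.03 TPM in the MSC-derived ones. It was 41.7-fold lower (log2 fold change -5.38, standard error 0.16, adjusted p = 2.13e-07).

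The order of the levels in TPM was *Comp*, *Snorc*, *Cnmd*, *Matn3*, *Ucma*, *Hapln1*, *Acan*, *Matn2*, *Matn4* and *Matn1* in the endogenous cells, and *Snorc* with *Cnmd* and *Hapln1* with *Acan* were neighbours whose library values overlapped. In the MSC-derived cells the order was *Comp*, *Snorc*, *Matn2*, *Matn4*, *Ucma*, *Cnmd*, *Acan*, *Matn3*, *Hapln1* and *Matn1*, and *Cnmd* with *Acan* and *Matn3* with *Hapln1* overlapped. *Comp* and *Snorc* were thus at the top and *Matn1* at the bottom of both orders, whereas *Matn2* and *Matn4* moved up and *Cnmd* and *Matn3* moved down. The summed level of the 10 genes was 10939 to 12421 TPM in the endogenous libraries and 372.9 to 383.6 TPM in the MSC-derived libraries. Without *Comp* the sums were 5294 to 6408 and 85.1 to 91.3 TPM.

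The next comparison asked whether the genes had changed by another amount than *Col2a1*, the main cartilage collagen, which had 120.8 ± 4.32 TPM in the MSC-derived cells and 12968 ± 944.5 TPM in the endogenous cells (SD, n = 3). Each library was scaled by its *Col2a1* count and all other genes were tested with edgeR's quasi-likelihood test, in which 97.9% of 14288 genes differed from *Col2a1*, 97.7% in the direction of a smaller fall and 0.217% in the direction of a larger fall. Of the 10 genes 8 differed from *Col2a1*. Among the 10, *Matn4* and *Matn2* kept most against it, at 37.1 and 32.4 times their endogenous ratio to *Col2a1* (log2 differences 5.21 and 5.02, standard errors 0.21 and 0.10, adjusted p = 5.69e-08 and 2.10e-09). Large rises of this ratio are not particular to these genes, since *Col2a1* itself had a log2 fold change of -6.30, beside a median of 0.05 over all genes tested. For each 1000 TPM of *Col2a1* there were 4.89 to 5.19 TPM of *Matn2* in the endogenous libraries and 158 to 170 TPM in the MSC-derived libraries.

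*Comp* also fell less than *Col2a1*, with 402, 490.5 and 486 TPM per 1000 TPM of *Col2a1* in the endogenous libraries and 2395, 2432 and 2323 in the MSC-derived ones (5.18 times, edgeR's quasi-likelihood adjusted p = 8.26e-08). *Comp* was therefore below *Col2a1* in each endogenous library and above it in each MSC-derived library. *Ucma* and *Acan* fell less than *Col2a1*, with log2 differences of 0.92 and 0.75 (edgeR adjusted p = 0.00364 for *Ucma* and 0.000122 for *Acan*). *Acan* had 17.9 to 19.2 TPM per 1000 TPM of *Col2a1* in the endogenous and 30.4 to 31.7 in the MSC-derived libraries. *Snorc* passed the threshold narrowly (log2 difference 0.67, standard error 0.28, adjusted p = 0.0452) and lost it when any MSC-derived library was left out (log2 differences 0.62 to 0.73, edgeR adjusted p = 0.0728 to 0.119). Without endogenous replicate 1 the log2 difference was 0.41 and passed (edgeR adjusted p = 0.00226).

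*Cnmd* and *Matn3* fell more than *Col2a1*, by factors of 4.42 and 2.12 (log2 differences -2.14 and -1.09, edgeR's quasi-likelihood adjusted p = 9.32e-06 and 0.000774). The ratio of *Cnmd* was 138 to 165 per 1000 TPM of *Col2a1* in the endogenous libraries and 27.5 to 43.4 in the MSC-derived libraries. No call was made for *Hapln1* (edgeR adjusted p = 0.157) or *Matn1* (0.409), and the 95% intervals of their log2 differences, -0.68 to 0.13 and -0.62 to 1.36, leave room for changes in their ratio to *Col2a1*. For 4 of the 10 genes the outcome depended on the reference gene. *Col9a1*, a chain of the collagen that coats the *Col2a1* fibrils, fell by 8.25 on the log2 scale, and measured against it *Matn3* and *Hapln1* changed sign, with log2 differences of 0.85 and 1.70 (adjusted p = 0.00485 and 4.04e-05), *Matn1* passed the threshold (2.36, adjusted p = 0.00229) and *Cnmd* no longer differed (-0.19, standard error 0.26, adjusted p = 0.467).

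**Figure D3:**
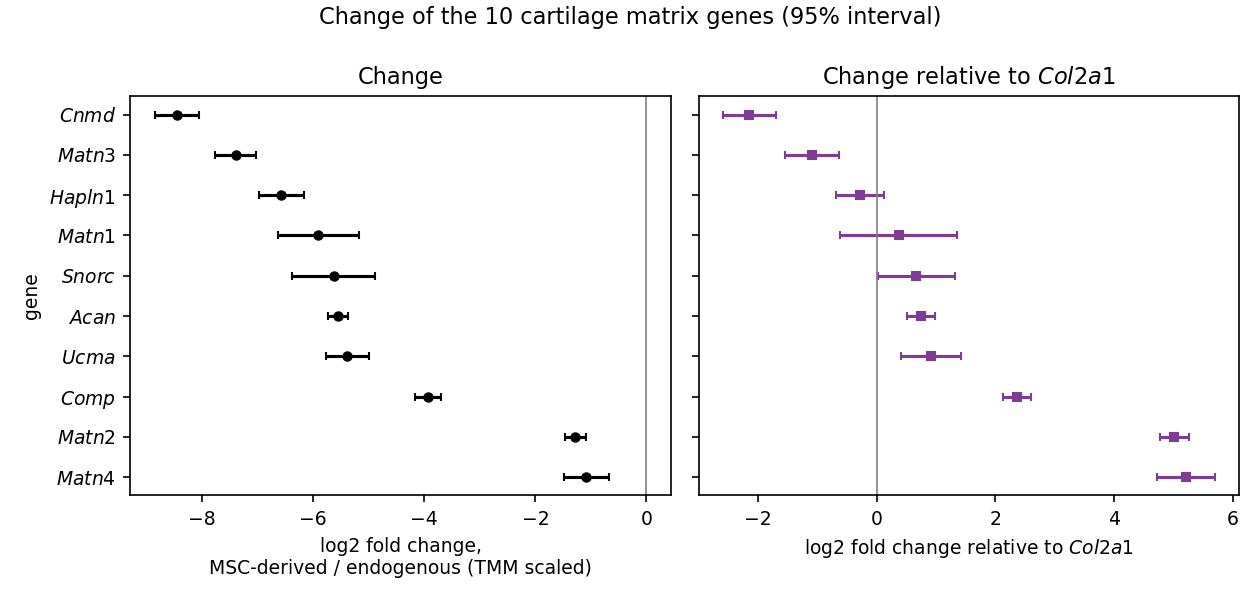
Left, log2 fold change of each gene between MSC-derived and endogenous cells on TMM-adjusted counts. Right, the same change relative to *Col2a1*. Points are edgeR estimates and bars are 95% intervals. All 10 genes lie left of 0 in the left panel, while on the right *Matn2*, *Matn4* and *Comp* lie far above 0 and *Cnmd* and *Matn3* below it.

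Related genes were read from lists of 49 names of the same matrix network, of which 48 were in the table and 44 were tested. The remaining name, Tmem2, is an older symbol of *Cemip2*, which is in the lists. The MSC-derived cells had 36 of these lower and 6 higher, and the other 2 did not pass. For comparison, 30.3% of all genes tested were lower and 31.3% higher. The cartilage collagens (7 of 7 lower, median log2 fold change -6.87) and the SOX genes *Sox5*, *Sox6* and *Sox9* (3 of 3, median -2.54) were lower throughout. *Sox9* fell by 5.10 on the log2 scale, whereas *Sox5* and *Sox6* fell by 2.54 and 2.29. Other cartilage matrix genes were lower as well (15 of 15, median -4.28). The most abundant of them over all 6 libraries, *Cytl1*, a cytokine-like protein of chondrocytes, stood at 21441 ± 2166 TPM in the endogenous cells and 496.0 ± 17.4 TPM in the MSC-derived cells (SD, n = 3). In the MSC-derived cells *Prg4*, which encodes the joint lubricant lubricin, was the most abundant of this list at 1999.9 ± 44.2 TPM, against 3985 ± 753.1 TPM in the endogenous cells, and its log2 fold change of -0.51 was the smallest of the list.

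Of the paralogues of the 10 genes 7 of 8 tested were lower, with a median log2 fold change of -2.52. *Thbs1*, the most abundant of them and a relative of *Comp*, fell by 1.23 on the log2 scale. The log2 fold changes of *Thbs3* and *Thbs4* were -2.54 and -2.50. *Vcan*, the relative of aggrecan in loose connective tissue, fell by 2.74. The link protein gene *Hapln3* fell by 5.05, from 280 to 342 expected counts per endogenous library to 6 to 15 per MSC-derived library. The brain forms *Bcan*, *Ncan* and *Hapln2* were below the expression filter. The difference between these lists and the 10 genes was not tested.

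Genes that make, cut or bind hyaluronan, the chain to which aggrecan attaches, went both ways, with 6 of 11 tested genes higher and 4 lower. The shares over all genes tested were 31.3% higher and 30.3% lower. The higher genes were the hyaluronan receptors *Cd44*, *Hmmr*, *Lyve1* and *Stab2* and the hyaluronidases *Hyal1* and *Hyal2*. *Stab2* rose by 6.49 on the log2 scale, from 5 to 48 expected counts in the endogenous libraries to 2119 to 2586 in the MSC-derived ones, and *Cd44* by 0.86. The lower genes were the synthases *Has1* and *Has2* and *Cemip* and *Cemip2*, which take part in hyaluronan breakdown, with log2 fold changes of -4.19 for *Has2*, -4.15 for *Cemip* and -1.43 for *Cemip2*. *Has1*, the most abundant gene of this list over all 6 libraries, changed little, by -0.27 on the log2 scale (edgeR's quasi-likelihood test, adjusted p = 0.0322, standard error 0.09). *Tnfaip6*, whose product modifies hyaluronan, did not pass the threshold (-0.42, edgeR adjusted p = 0.119), but it was called lower without endogenous replicate 1 (-0.17, adjusted p = 0.0110) or without endogenous replicate 2 (-0.58, adjusted p = 0.0373). The calls of *Has1* and *Hyal2* were not firm, since *Has1* lost its call with library size scaling (edgeR adjusted p = 0.153) and *Hyal2* with upper quartile scaling (0.0804), and both lost it when any MSC-derived library was left out (0.0721 to 0.116). Neither changed direction. *Lyve1* and *Stab2* are also genes of macrophages or sinusoidal endothelium, and the leukocyte, macrophage and neutrophil markers were higher in the same libraries. The part of such cells in the values of the 6 higher genes, *Cd44* among them, was not tested.

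**Figure D4:**
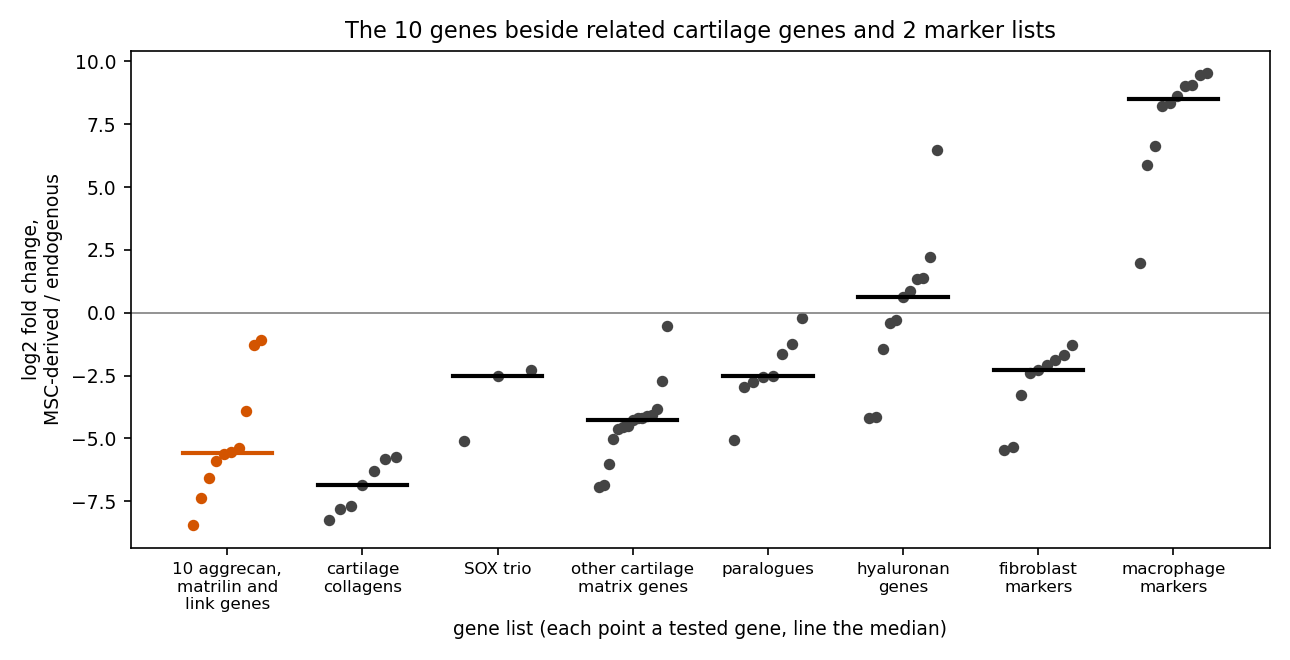
Log2 fold change of the tested genes of each list, each point a gene and each line the list's median. The median of the 10 aggrecan, matrilin and link protein genes (-5.59) lies between the medians of the cartilage collagens (-6.87) and the other cartilage matrix genes (-4.28). The points of these lists overlap, with the 10 genes running from -8.45 to -1.08, and the hyaluronan genes spread around 0.

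Genes with nearly the same profile over the 6 libraries were sought among the 5335 genes whose average log2 CPM reached 5, each profile centred on its own endogenous mean. Closest to *Acan* were *Wif1* and *Fgfr3*, with root mean square differences of 0.07 and 0.08 on the log2 scale. Closest to *Comp* were *Lmcd1*, *Serpinh1* and *Fads2* (0.05, 0.07 and 0.07), and closest to *Matn2* were *Golt1b*, *Pdrg1* and *Dvl3* (0.03, 0.04 and 0.05). The log2 fold changes of these genes were close to those of the gene they resemble, with -5.62 for *Wif1* and -5.57 for *Fgfr3*. This closeness follows from the way the genes were picked, since the distance includes the difference between the groups. The distance is a description over 6 libraries.

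Because the 10 genes were lower together, the windows around their start sites were read from RefSeq (build GRCm38.p6, from 250 bases before to 50 after the start). Of the 10 genes 7 matched, with 8 windows, and *Comp*, *Matn2* and *Snorc* did not. The windows of *Cnmd* and *Matn3*, the genes with the largest falls, and of *Acan* are shown, with CG dinucleotides in capitals.
Cnmd, chr14:79662134-79662433, minus strand: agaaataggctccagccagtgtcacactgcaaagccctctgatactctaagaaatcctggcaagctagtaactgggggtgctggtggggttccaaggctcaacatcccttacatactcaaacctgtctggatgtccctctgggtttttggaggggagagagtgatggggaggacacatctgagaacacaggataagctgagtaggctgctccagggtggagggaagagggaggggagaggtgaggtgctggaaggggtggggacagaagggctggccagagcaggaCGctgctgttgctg
Matn3, chr12:8947679-8947978, plus strand: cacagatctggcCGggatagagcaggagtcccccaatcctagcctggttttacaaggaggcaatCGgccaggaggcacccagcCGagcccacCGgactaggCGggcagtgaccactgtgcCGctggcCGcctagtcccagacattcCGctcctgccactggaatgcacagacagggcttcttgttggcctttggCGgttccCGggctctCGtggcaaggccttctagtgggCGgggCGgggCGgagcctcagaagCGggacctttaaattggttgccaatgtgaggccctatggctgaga
Acan, chr7:79052976-79053275, plus strand: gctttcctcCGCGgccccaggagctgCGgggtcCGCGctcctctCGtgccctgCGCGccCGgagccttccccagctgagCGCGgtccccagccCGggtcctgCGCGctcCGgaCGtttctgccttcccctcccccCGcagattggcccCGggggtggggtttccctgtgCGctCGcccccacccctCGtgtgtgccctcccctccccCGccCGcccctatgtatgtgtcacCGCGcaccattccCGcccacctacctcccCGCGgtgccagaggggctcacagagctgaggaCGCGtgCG
The *Cnmd* window held 1 CG dinucleotide, that of *Matn3* 15 and that of *Acan* 31, beside a median of 7 over all 32851 windows. The GC content was 56%, 62.7% and 74%, beside a median of 52.7%. The SOX-type letters ACAAAG and AACAAT, searched on both strands, were in none of the 8 windows, while 27% of all windows held either. With 8 windows this difference was not tested. Only exact letters near the start were searched, so the absence says nothing about SOX sites of other form or place. The letters TATAAA, added after the first search, were absent from the 8 windows too, beside 13.6% of all windows that held them.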

How the data were processed

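Bulk RNA of 6 libraries was sequenced. Reads had been cleaned by the authors (SOAPnuke), mapped to genome (HISAT2) and gene set (Bowtie2) and quantified by RSEM. The submitters' processing notes name Bowtie2 2.2.5, RSEM 1.2.12 and build mm9. The authors deposited RSEM expected counts without normalization, FPKM (per length and library size), TPM (scaled to the same total in each library) and a scaled signal, which equals the expected count rounded up times a factor per library and was used only for this check. By their names 24 columns were assigned to samples, the 8 group-mean columns were left out, and 0 single-sample columns were unmapped.

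Expected counts were rounded, which changed 20.6% of values, and analysed in edgeR 4.0.16 under R 4.3.3 (TMM, filterByExpr, glmQLFit, glmQLFTest, all 6 libraries, no block), with Benjamini-Hochberg adjustment over all genes tested and a threshold of 0.05. Standard errors are the log2 fold change divided by the square root of F, and 95% intervals use the test's degrees of freedom. For changes relative to *Col2a1*, its count set the library scale. The code was tested on simulated data. Alternatives were DESeq2 1.42.0, limma 3.58.1 on log2 FPKM with a pseudocount of 1 or 0.1, other normalizations and filters, a threshold of 0.001, *Col9a1* as reference, the replicate number as a block, and each library left out. All 10 genes are named, and of the other lists the most abundant gene, genes against the majority, and a few more as examples chosen after their values were seen. For *Acan*, *Comp* and *Matn2* the 3 genes of most similar profile were sought, and 1 of them is not reported here. The genes and lists were chosen with earlier results of these data known. Figures were drawn with matplotlib 3.10.9.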

Additional observations from a re-analysis of the deposited data

How the results depend on the processing

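All 10 genes stayed lower, and 0 were higher, in each of the 17 alternatives, except that *Matn4* (adjusted p = 0.00115) missed a threshold of 0.001. The median log2 fold change of the 10 was -5.05 in limma on log2(FPKM + 1) and -5.32 in limma on log2(FPKM + 0.1), which change the scaling and the model as well as adding a pseudocount (library size scaling alone gave -5.48), and -5.79 to -5.50 when a library was left out. Of the related genes, 34 to 38 were lower and 4 to 6 higher. Scaling alone moved the median of all genes by -0.09 (upper quartile) to 0.12 (library size) on the log2 scale, DESeq2, which tested 16105 genes, by -0.11, and limma on log2(FPKM + 0.1) by 0.15. Relative to *Col9a1* in place of *Col2a1*, *Hapln1* and *Matn3* reversed, to 1.70 and 0.85. As shares of expected counts, not divided by length, *Comp* made up 59.7% of the endogenous and 79.3% of the MSC-derived total of the 10 genes, and 49.0% to 50.6% and 76.0% to 76.7% by TPM with a library left out.

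The sample titles give same-numbered libraries of the groups a common number and state no pairing. The deviations of the pairs correlated by 0.01, 0.00 and 0.02, which with so few libraries cannot show that a pairing is absent. With the replicate block all 10 genes were still lower and 35 related genes were lower and 6 higher, 7 in place of 8 genes differed from *Col2a1* because *Snorc* lost its call (adjusted p = 0.0556), the median log2 fold change was -5.56, and no other call of the 10 genes changed. The 3 libraries of a group limit the permutation tests to p = 0.1, and *Matn1* is limited by its 5 to 9 counts.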
